A study of Mus musculus with 22 samples.

Results

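The FoxO, atrogene and fasting-stress genes described here are 9 mouse genes chosen by symbol: the transcription factors Foxo1, Foxo3, Klf15 and Atf4, the ubiquitin ligase genes Fbxo32, Trim63 and Fbxo31, and the signalling inhibitors Ddit4 and Cdkn1a. The count table held 8 of these 9, among 6054 genes. Cdkn1a was the absent one. They were measured in quadriceps muscle of C57Bl/6 mice, an inbred strain, which had all been fasted overnight and then given leucine or vehicle by oral gavage 30 minutes before the muscle was taken. RNA sequencing gave 5 vehicle and 6 leucine libraries, and ribosome profiling, which sequences the mRNA fragments (footprints) that ribosomes shield from nuclease, gave another 5 vehicle and 6 leucine libraries. All groups were fasted, so a fed state was not measured, and the sources used here do not give the dose of leucine or the age and sex of the mice. Nothing in the labels ties each library to its own animal, and p-values then measure only how far these samples differ, which may be technical.

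In fasting, low insulin leaves the kinase Akt less active, and FoxO transcription factors that Akt would otherwise keep in the cytoplasm enter the nucleus. In muscle they are known to switch on atrogenes, genes whose products break down muscle protein through the ubiquitin-proteasome system and autophagy. Glucocorticoids, which also rise in fasting, act on several of the same genes. Leucine is known for another route, the activation of the kinase complex mTORC1, which raises the translation of a class of mRNAs.

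Promoter sequences show which of these genes carry the binding letters of the pathway in the 250 bases before their start. RefSeq promoters on build GRCm38.p6 were matched for 8 of the 9 genes, with 2 starts for Cdkn1a and none for Fbxo32. Trim63 and Klf15 are shown because they were the matched genes with a hit for a FoxO, glucocorticoid receptor, E-box, cAMP response or ATF4 motif. Both strands were searched, capitals mark the hits, and the last letter is the base before the start.
Trim63, chr4:134314870-134315119, plus strand: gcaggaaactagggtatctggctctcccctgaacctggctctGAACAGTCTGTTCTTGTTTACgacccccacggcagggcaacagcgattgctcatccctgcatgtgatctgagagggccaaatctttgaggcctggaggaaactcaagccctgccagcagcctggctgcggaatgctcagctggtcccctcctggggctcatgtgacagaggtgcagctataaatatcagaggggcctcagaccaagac
Klf15, chr6:90462326-90462575, plus strand: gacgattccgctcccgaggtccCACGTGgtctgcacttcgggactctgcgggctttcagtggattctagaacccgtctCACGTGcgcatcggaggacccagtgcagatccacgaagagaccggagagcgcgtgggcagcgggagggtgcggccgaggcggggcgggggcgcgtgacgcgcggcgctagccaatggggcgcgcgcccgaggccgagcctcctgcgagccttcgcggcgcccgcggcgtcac
In Trim63 the capitals are a pair of glucocorticoid receptor half-sites (AGAACA, any 3 bases, then TGTTC), read on the minus strand and beginning 208 bases before the start, and the FoxO binding letters TGTTTAC, beginning 194 bases before it. The motifs lie side by side without sharing a base. The FoxO letters occur in 3.17% of all 32851 promoter windows of this length and the glucocorticoid half-sites in 0.0304%. In Klf15 the capitals are the E-box CACGTG, 228 and 172 bases before the start, and 6.02% of all windows hold it. The cAMP response element TGACGTCA, held by 1.55% of windows, and the ATF4 composite element TGATGNAA, held by 3.45%, had no match in any of the 9 windows. Over the 5819 windows of the genes in the count table, the FoxO letters were held by 1.96%, the glucocorticoid half-sites by 0.0344%, the E-box by 9.14%, the cAMP response element by 2.56% and the ATF4 element by 1.94%. These matches describe letters and show nothing of binding in these muscles.

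Counts were read as CPM (counts scaled to a common library total) after TMM scaling, a factor per library that makes most genes level. RNA libraries held between 15016267 and 30944085 counts, and footprint libraries between 21697096 and 48996109. The smallest count of any gene in any library was 129, so every member passed the filter on low counts, which removed 0 genes. The column names begin with 1 of 2 unexplained numbers, which divide each assay into a set A (3 libraries per treatment) and a set B (2 vehicle, 3 leucine). A library is given here by its set and its column position in it, as A1 or B2. Leucine RNA library A3 stood apart. It was the highest or lowest of the 6 leucine RNA libraries in 65.9% of all genes, where an equal share would be 33.3%, and the other 5 lay between 17.4% and 31.8%. Vehicle RNA library B2 was extreme in 51.2% of all genes and vehicle footprint library B2 in 45.5%, where an equal share would be 40%, and the other vehicle libraries lay between 33.9% and 41.5%. Of 15 muscle fibre markers 14 were measured, and their summed RNA level ran from 338021 to 515119 CPM over the 11 libraries, so the tissue carried its defining markers. In whole muscle, fewer cells of a type and less RNA per cell cannot be told apart.

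After leucine, none of the 8 genes passed the test in RNA, in footprints or in translational efficiency, the change in footprints beyond the change in RNA. With edgeR's quasi-likelihood test and Benjamini-Hochberg adjustment over 6054 genes at a threshold of 0.05, 0 of 8 passed in RNA (background 0.0% of all genes), 0 of 8 in footprints (background 0.76%, 46 genes) and 0 of 8 in efficiency (background 0.0%). At an unadjusted p under 0.05 there were also 0 of 8 in each comparison, beside 163 genes of the whole table in RNA, 731 in footprints and 429 in efficiency. The alternative test DESeq2 called 0 genes in RNA, 253 in footprints and 57 in efficiency, none of them a member. The median log2 change of the 8 genes was -0.06 in RNA, 0.02 in footprints and 0.02 in efficiency, beside -0.0017, -0.01 and -0.02 over all genes. Groups overlapped for all 8 genes in both assays, where complete separation in either direction was seen in 0.198% of genes in RNA and 2.49% in footprints. The wide intervals of several members mean that these data do not exclude sizeable changes, and the values below give them gene by gene.

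**Figure D1:**
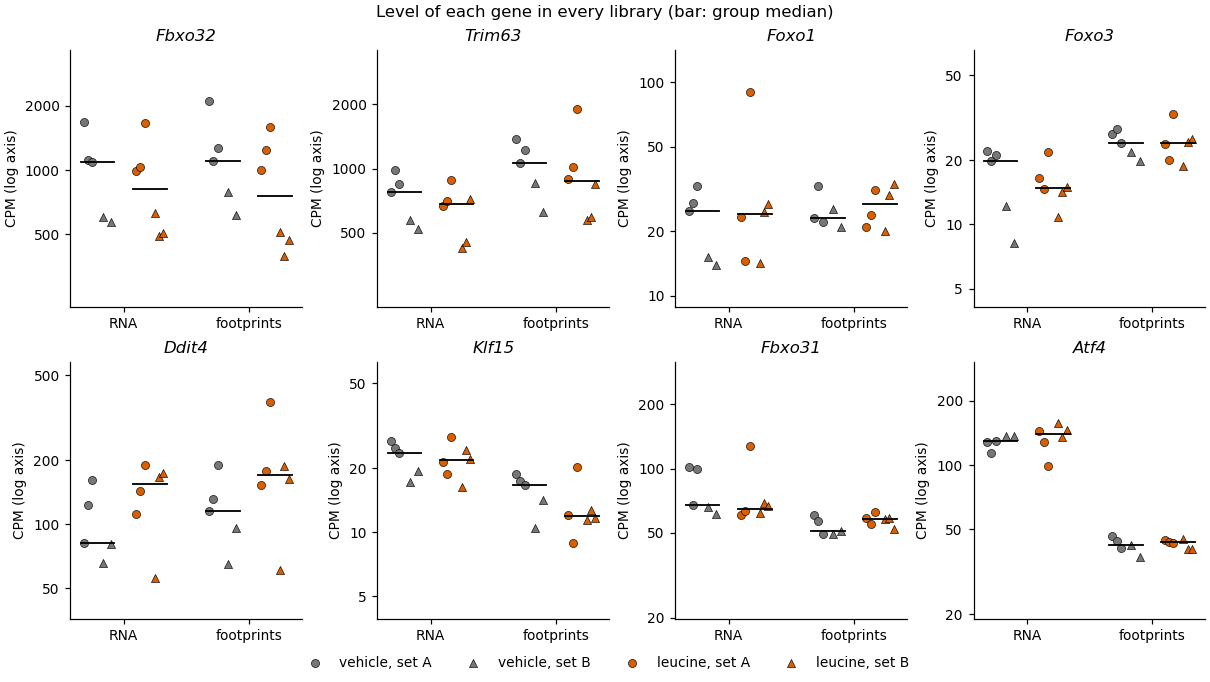
CPM of each of the 8 genes in every library on a log axis, with vehicle in grey, leucine in orange, circles for set A, triangles for set B and a bar at each group's median. In Fbxo32 every circle lies above every triangle in both assays, and in Foxo1 a single leucine RNA library lies far above the rest at 90.5 CPM.

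Fbxo32, which encodes atrogin-1, the muscle-specific F-box subunit of an SCF ubiquitin ligase, was among the most abundant of the 8. Its RNA level in vehicle was 1681, 1111 and 1088 CPM in A1, A2 and A3 and 601 and 569 CPM in B1 and B2. In leucine it was 994, 1035 and 1656 CPM in A1 to A3 and 630.2, 489 and 508 CPM in B1 to B3. The groups overlapped, and the low libraries of both groups were those of set B. Footprints were 2114, 1107 and 1265 CPM in vehicle A1 to A3 and 792 and 617 CPM in B1 and B2. After leucine they were 997, 1245 and 1593 CPM in A1 to A3 and 515, 396 and 472 CPM in B1 to B3. Within set B all 3 leucine footprint values lay below both vehicle values, while set A overlapped. This order rests on 3 against 2 libraries, and the share of all genes separated this way was not computed, so no result is read from it. The log2 change was -0.19 ± 0.37 (SE) in RNA (95% interval -0.99 to 0.61, adjusted p = 0.999 in edgeR) and -0.44 ± 0.42 in footprints (-1.36 to 0.49, adjusted p = 0.723). Within set A the footprint change was -0.23 ± 0.27 and within set B -0.61 ± 0.14 (edgeR adjusted p = 0.825 and 0.224). In set B its unadjusted edgeR p was 0.0018, and 642 genes of the whole table had an unadjusted p under 0.05 there. The efficiency change was -0.16 ± 0.40 in set A and -0.50 ± 0.22 in set B (edgeR adjusted p = 0.997 and 0.460, unadjusted 0.705 and 0.041). The difference between the sets in footprints was not past the threshold (-0.38 ± 0.37, adjusted p = 0.9998, edgeR interaction). Without vehicle footprint library A1, its highest, the change was -0.12, and without leucine footprint library A3 it was -0.70. The RNA change was 0.077 without vehicle RNA library A1 and -0.46 without leucine RNA library A3.

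Trim63 encodes MuRF1, the RING-finger ligase that marks myosin and other sarcomere proteins for breakdown. Its RNA was 777, 983 and 848 CPM in vehicle A1 to A3 and 573 and 522 CPM in B1 and B2. In leucine RNA it was 667, 703 and 883 CPM in A1 to A3 and 426, 453 and 719 CPM in B1 to B3. Only 1 of the 6 leucine values exceeded the vehicle median of 777 CPM, and 2 lay under every vehicle value. Footprints were 1371, 1061 and 1228 CPM in vehicle set A, 859 and 626 CPM in vehicle set B, 897, 1023 and 1906 CPM in leucine set A and 575, 593 and 851 CPM in leucine set B. The leucine group thus held both the highest and the lowest footprint value of the gene. The log2 change was -0.21 ± 0.22 in RNA and -0.08 ± 0.31 in footprints (95% intervals -0.68 to 0.27 and -0.74 to 0.59, edgeR adjusted p = 0.999 and 0.956). Without vehicle library A2 the RNA change was -0.08, and without leucine library A3 it was -0.31. Without leucine footprint library A3 the footprint change was -0.38, and within set A alone it was 0.06.

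Fbxo31, an F-box protein first known for the turnover of cell cycle proteins and listed among FoxO-dependent ligases of fasting muscle, was spread widely in RNA and narrowly in footprints. In RNA, vehicle libraries ran from 61.6 to 102 CPM with a median of 67.6. Leucine libraries were 60.8 and 63.2 CPM in A1 and A2, 62.1, 69.3 and 66.6 CPM in B1 to B3, and 128 CPM in A3. Footprints were 60.5, 56.6, 49.4, 49.3 and 51.2 CPM in vehicle and 58.4, 55.3, 62.7, 58.1, 58.6 and 51.9 CPM in leucine. All 6 leucine footprint values exceeded the vehicle median of 51.2 CPM, but only 1 exceeded every vehicle value. The footprint change was 0.11 ± 0.07 (95% interval -0.05 to 0.27, edgeR adjusted p = 0.595). In RNA it was -0.09 ± 0.22, and -0.30 without leucine library A3.

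Of the 5 other measured SCF core genes, which supply the scaffold on which F-box proteins work, 0 passed in any comparison. The cullin gene Cul1 had a footprint change of -0.15 ± 0.08 and an efficiency change of -0.26 ± 0.10 (edgeR adjusted p = 0.461 and 0.532), and the exchange factor gene Cand1 one of 0.05 ± 0.08 in footprints.

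Foxo1 and Foxo3 encode the main FoxO factors of muscle and were the least abundant transcripts of the 8 per length, at 4.09 and 5.77 RNA CPM per kb in vehicle. Foxo1 RNA was 24.9, 27.1 and 32.5 CPM in vehicle A1 to A3 and 15.2 and 13.9 CPM in B1 and B2. In leucine RNA it was 23.3 and 14.6 CPM in A1 and A2, 90.5 CPM in A3, and 14.3, 24.8 and 26.8 CPM in B1 to B3. Library A3 thus lay far above all others, and the other 5 leucine values lay within the vehicle range. Footprints of Foxo1 did not show this: leucine A3 was at 31.4 CPM, beside 20.1 to 33.5 CPM over leucine and 20.9 to 32.7 CPM over vehicle. The RNA change was 0.51 ± 0.47 with all libraries (95% interval -0.52 to 1.54, edgeR adjusted p = 0.999) and -0.11 without A3. In footprints it was 0.10 ± 0.15 (-0.24 to 0.43, adjusted p = 0.861), 0.02 without leucine library B3 and 0.22 without vehicle library A2. The efficiency change turned with the same library, from -0.43 ± 0.52 to 0.20 without it.

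Foxo3 RNA was 21.99, 19.7 and 21.1 CPM in vehicle set A, 12.2 and 8.19 CPM in vehicle set B, 16.6, 14.7 and 21.8 CPM in leucine set A and 10.8, 14.2 and 14.9 CPM in leucine set B. The vehicle group was split by set, with a gap between 12.2 and 19.7 CPM, and leucine libraries filled that gap. Footprints ran from 19.8 to 27.9 CPM in vehicle (median 24.1) and from 18.9 to 33.0 CPM in leucine (median 24.1). The log2 change was -0.10 ± 0.25 in RNA and 0.01 ± 0.14 in footprints. Without vehicle RNA library B2 the RNA change was -0.28, and without vehicle A1 it was 0.03. The RNA change had opposite signs in the sets, -0.24 ± 0.17 in A and 0.38 ± 0.22 in B, and the edgeR test of that difference gave an unadjusted p of 0.0555 and an adjusted p of 0.999.

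Klf15 encodes a zinc-finger factor that glucocorticoids induce in muscle and that acts on amino acid catabolism. Its RNA ran from 17.3 to 26.8 CPM in vehicle (median 23.6) and from 16.4 to 27.8 CPM in leucine (median 21.7). Its footprints were 18.8, 17.4 and 16.7 CPM in vehicle set A and 10.5 and 14.2 CPM in vehicle set B. In leucine they were 12.1, 8.92 and 20.2 CPM in set A and 11.4, 12.7 and 11.6 CPM in set B. Of 6 leucine values 5 lay below the vehicle median, and the other, A3, lay above every vehicle value. The change in footprints was -0.28 ± 0.19 (95% interval -0.70 to 0.14, edgeR adjusted p = 0.598) and -0.45 without A3. In RNA it was -0.03 ± 0.15.

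Atf4, the main transcription factor of the integrated stress response, was the steadiest of the 8. Its RNA ran from 114 to 137 CPM in vehicle, and leucine libraries ran from 99.5 CPM in A3 to 157 CPM in B1. Its footprints were 46.7, 44.0, 40.8, 42.0 and 37.0 CPM in vehicle and 44.5, 43.8, 43.3, 45.0, 40.6 and 40.6 CPM in leucine. Every leucine footprint value lay inside the vehicle range. The 95% interval was -0.17 to 0.30 for the log2 RNA change (0.07 ± 0.11) and -0.12 to 0.17 for footprints (0.03 ± 0.07), the narrowest footprint interval of the 8 (edgeR adjusted p = 0.999 and 0.913). The RNA change was 0.15 without leucine library A3 and 0.02 without leucine library B1.

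Ddit4 encodes REDD1, a stress-induced protein that restrains mTORC1 through the TSC complex, and it had the largest positive footprint estimate of the 8. RNA was 81.6, 124 and 161 CPM in vehicle set A and 65.6 and 81.1 CPM in vehicle set B. In leucine RNA it was 112, 143 and 190.2 CPM in set A and 56.1, 166 and 173 CPM in set B. Footprints were 115, 131 and 189 CPM in vehicle set A and 65.3 and 95.8 CPM in vehicle set B, against 153, 178 and 372 CPM in leucine set A and 60.9, 188 and 162 CPM in leucine set B. In both assays 5 of 6 leucine values exceeded the vehicle median, and leucine B1 was the lowest of all 11 libraries. The log2 change was 0.45 ± 0.31 in RNA (95% interval -0.23 to 1.12, edgeR adjusted p = 0.999) and 0.64 ± 0.39 in footprints (-0.23 to 1.505, adjusted p = 0.545). It was positive within both sets, at 0.69 ± 0.39 in set A and 0.77 ± 0.55 in set B for footprints and at 0.28 ± 0.29 and 0.85 ± 0.52 for RNA. Without leucine footprint library A3 the footprint change was 0.32, and without vehicle footprint library A3 it was 0.88. The RNA change was 0.68 without vehicle RNA library A3. The efficiency change was 0.18 ± 0.51 (adjusted p = 0.986).

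Cdkn1a encodes p21, an inhibitor of cyclin-dependent kinases that p53 and FoxO factors induce. It was seen only in the authors' deposited table of edgeR results, which gives no values per library. In the authors' deposited table its log2 change was 0.48 in RNA (p = 0.174, FDR 1, mean log2 CPM 3.03) and 0.02 in footprints (p = 0.914, FDR 1, mean log2 CPM 5.402). The same authors' deposited table gives Ddit4 a footprint change of 0.66 with an unadjusted edgeR p of 0.040 and FDR 0.739. The edgeR fit used here gave that change an unadjusted p of 0.132. For the other 7 members the authors' deposited table lists FDR 1 in both assays.

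**Figure D2:**
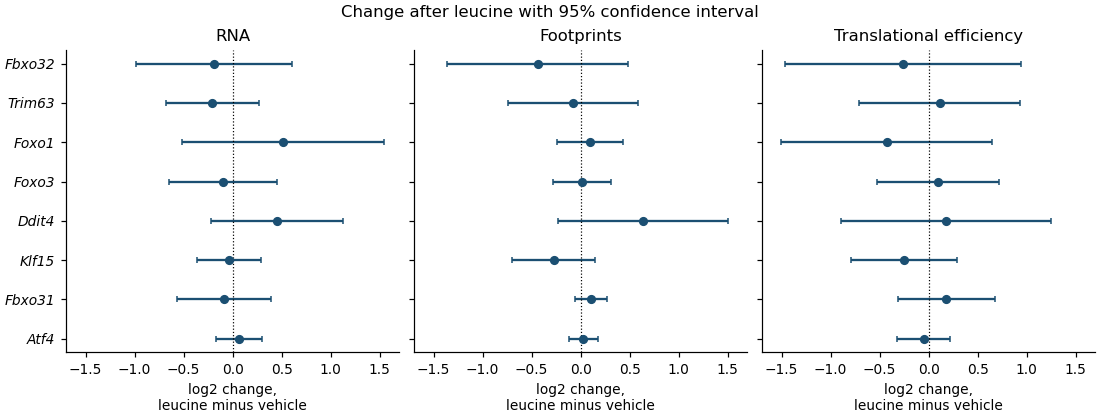
Log2 change after leucine for the 8 genes in RNA, footprints and translational efficiency, with points at the edgeR estimate and bars for the 95% interval. Every interval crosses 0, the widest in RNA is that of Foxo1, and the narrowest in each comparison is that of Atf4.

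None of the members passed in change, while several ranked high in spread between libraries of 1 group. The members were chosen with earlier results of these data known, and the spread of the related gene lists was not compared. Their ranks in spread are therefore descriptions and are not read as particular to these genes. The spread is the SD of log2 CPM within vehicle and within leucine, pooled over both. Percentiles of spread are among the 6054 genes of the count table, none of which has fewer than 129 counts in any library. The authors' deposited edgeR tables list 10000 genes in RNA and 9766 in footprints. Genes outside the count table could not be ranked, so the percentiles hold only among the genes kept in it. In RNA, Foxo1 had an SD of 0.81 (higher than 99.0% of genes), Fbxo32 0.68 (97.8%), Ddit4 0.60 (96.8%) and Foxo3 0.48 (93.6%), beside a median of 0.19 over all genes. In footprints, Fbxo32 had an SD of 0.77 (99.3%), Ddit4 0.73 (99.1%), Trim63 0.56 (98.3%) and Klf15 0.36 (94.3%), beside a median of 0.16. In each assay 4 of 8 members were thus in the most variable 10% of genes, and only Fbxo32 and Ddit4 were there in both. In linear terms the highest leucine footprint library held 6.12 times the Ddit4 level of the lowest and 4.02 times the Fbxo32 level, or 3.09 and 3.14 times without leucine footprint library A3. The counts of the 8 genes alone would give SDs between 0.0081 and 0.0829 on the log2 scale.

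Trim63 RNA (SD 0.40, 89.8%), Fbxo31 RNA (SD 0.38, 88.8%) and Foxo1 footprints (SD 0.29, 88.7%) lay just under the most variable 10%, followed by Foxo3 footprints at 0.25 (83.0%) and Klf15 RNA at 0.27 (74.3%). Atf4 was at the 51st percentile in RNA, with an SD of 0.19, and at the 13.1st in footprints, with 0.10. Fbxo31 was at the 21.5th percentile in footprints with an SD of 0.11, well under its rank in RNA, which rests in part on leucine RNA library A3. Without leucine RNA library A3 the SD of Foxo1 RNA was 0.49 (96.7%), that of Fbxo31 RNA 0.25 (79.8%) and that of Atf4 RNA 0.11 (20.9%), while Fbxo32 was at 98.3%, Ddit4 at 98.4% and Trim63 at 92.9%. Without vehicle RNA library B2 the SD of Foxo3 RNA was 0.35 (87.0%). Without leucine footprint library A3, Ddit4 had an SD of 0.62 (98.8%), Trim63 0.41 (96.5%) and Klf15 0.27 (87.4%).

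**Figure D3:**
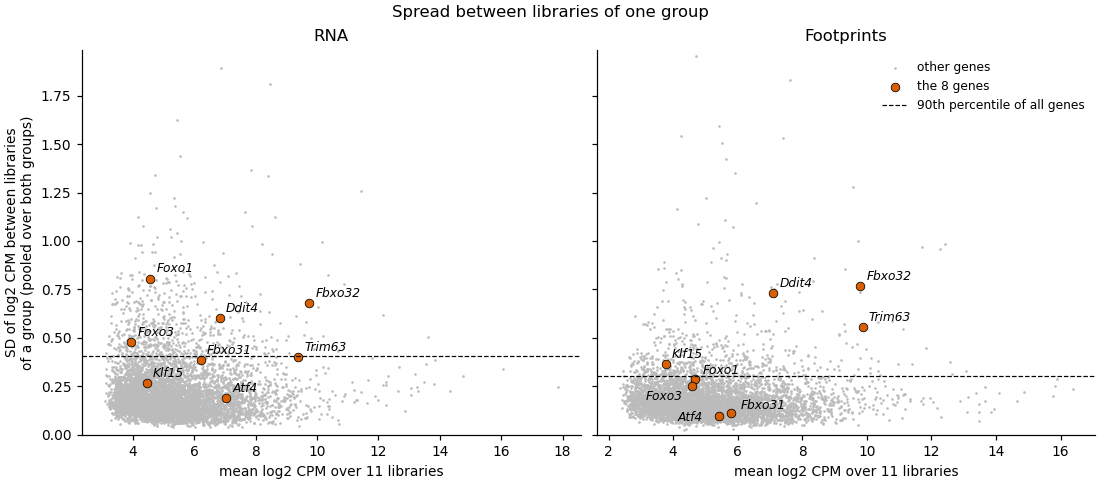
Within-group SD of log2 CPM against mean log2 CPM for all 6054 genes (grey) and the 8 genes (orange), with the dashed line at the 90th percentile. Foxo1, Fbxo32, Ddit4 and Foxo3 lie above the line in RNA, and Fbxo32, Ddit4, Trim63 and Klf15 in footprints, while Atf4 and Fbxo31 lie near the bottom in footprints.

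A good part of the spread of Fbxo32 followed the sets. Its RNA was 1261 ± 318 CPM in set A (SD, n = 6) and 559 ± 60.0 in set B (SD, n = 5), and its footprints were 1387 ± 409 and 558 ± 153 CPM, with no overlap between sets in either assay. All of set A lay above all of set B in 5.81% of genes in RNA and 6.39% in footprints. With treatment in the model, set B minus set A was -1.16 ± 0.17 on the log2 scale in RNA (edgeR adjusted p = 0.00527) and -1.30 ± 0.19 in footprints (adjusted p = 9.6e-04). Trim63 was also lower in set B, by a log2 difference of -0.57 ± 0.15 in RNA (adjusted p = 0.0255) and -0.83 ± 0.20 in footprints (adjusted p = 0.0135), where its sets did not overlap. Foxo3 was lower in set B in RNA (-0.68 ± 0.17, edgeR adjusted p = 0.0235), and its footprints did not pass (-0.24 ± 0.12, adjusted p = 0.163). In all, 3 of 8 members were called in RNA, where the background was 18.8% of genes in either direction and 9.8% lower in set B. In footprints 2 of 8 were called, beside 23.8% and 12.2%. The RNA call of Trim63 was lost without vehicle A2, A3, B1 or B2 or without leucine B1 or B2, with adjusted p up to 0.0768, and that of Foxo3 without vehicle B1 or B2 or leucine B1, with adjusted p up to 0.0624. Scaling by total counts alone, which moved the median set difference of all genes to 0.20 in RNA and 0.15 in footprints, also ended the RNA call of Trim63 (adjusted p = 0.0504) and gave Atf4 one, higher in set B by 0.40 (adjusted p = 0.00885).

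What the sets are is not explained in the sources used here, so animals, tissue handling, library preparation and sequencing run cannot be told apart behind this difference. Depth moved with the sets, in opposite directions in the assays: RNA totals were 15016267 to 20502368 in A and 26947663 to 30944085 in B, and footprint totals 34016483 to 48996109 in A and 21697096 to 25016569 in B. Fbxo32 was lower in B in both assays, and the part of depth in the set differences was not tested. The summed RNA level of the 14 muscle fibre markers was also lower in set B (338021 to 386522 CPM) than in set A (456582 to 515119 CPM), while in footprints it ran from 296495 to 345115 CPM in B and from 316024 to 455106 in A. The part of the marker level in the member differences was not tested either. Both sets hold both treatments, and the interaction of treatment with set in edgeR called 0 of 6054 genes in each assay (background 0.0%). At an unadjusted p under 0.05 it held 110 genes in RNA and 176 among footprints.

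With the sets taken out, the spread of Fbxo32, Trim63 and Foxo3 RNA came down and that of Ddit4 and of Foxo1 RNA changed little. The median SD of all genes also came down, from 0.19 to 0.16 in RNA and from 0.16 to 0.13 in footprints. The SD within treatment and set was 0.31 for Fbxo32 RNA (85.5th percentile) and 0.35 for its footprints (96.2nd), against 0.60 and 0.65 for Ddit4 (97.5th and 99.3rd) and 0.78 for Foxo1 RNA (99.0th). It was 0.27 for Trim63 RNA (80.7th), 0.39 for Trim63 footprints (97.3rd) and 0.26 for Foxo3 RNA (79.3rd). In this measure 3 of 8 members were in the most variable 10% of genes in RNA and 5 of 8 in footprints. Without leucine library A3 of each assay these counts were 2 and 4, and Foxo1 RNA had an SD within treatment and set of 0.37 (95.2nd percentile).

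**Figure D4:**
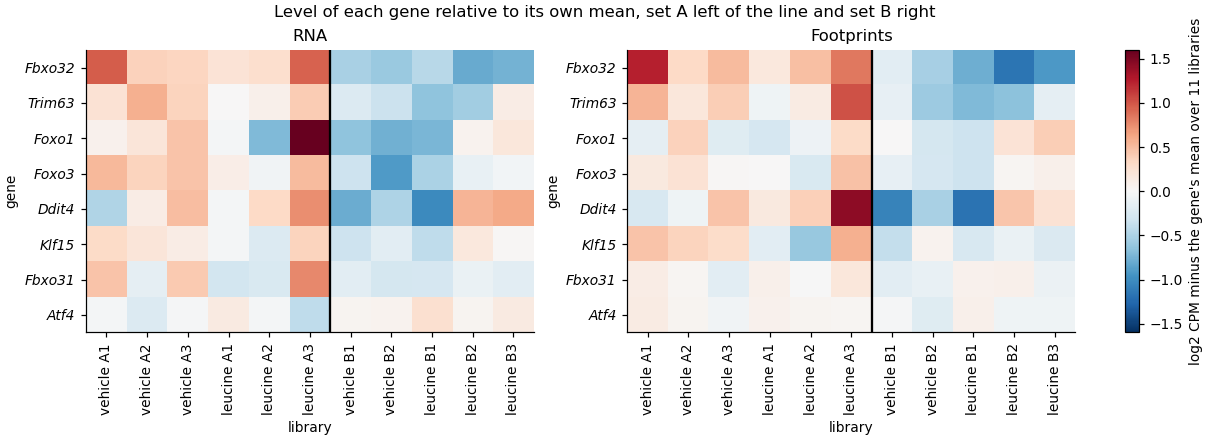
Log2 CPM of the 8 genes in each library minus the gene's mean over the 11 libraries of the assay, with set A left of the line and set B right. Fbxo32 and Trim63 are mostly red in set A and blue in set B, leucine A3 is red for 7 of 8 genes in RNA and blue for Atf4, and Ddit4 is blue in both vehicle libraries and 1 leucine library of set B.

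Taken over all libraries of an assay, those with a high level of 1 member tended to be high for others. Pair correlations over all genes were not computed, so this is not read as a trait of the members. Leucine RNA library A3 was the highest of its group for 7 of the 8 genes and the lowest for Atf4, and leucine footprint library A3 was the highest for 6 of 8. The labels do not link the RNA and footprint columns, so it is not known whether they share an animal. At the other end, leucine library B1 was the lowest of its group for 5 genes in RNA and 4 in footprints, and vehicle library B2 for 5 in each assay. Over the 28 pairs of members, Pearson's r of log2 CPM across 11 libraries, centred on treatment, ran from -0.80 to 0.87 in RNA (median 0.66) and from -0.11 to 0.89 in footprints (median 0.52). Without leucine library A3 of the assay the range was -0.65 to 0.86 in RNA (median 0.54) and -0.26 to 0.87 in footprints (median 0.34). With A3 left out and the set also centred, RNA pairs ran from -0.79 (Fbxo32 with Ddit4) to 0.70 (Foxo1 with Ddit4). Footprint pairs then ran from -0.86 (Ddit4 with Atf4) to 0.74 (Foxo1 with Foxo3). These are descriptions over libraries that share scaling, treatment and sets, and they carry no test.

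The highest pair in footprints was Fbxo32 with Trim63, with r = 0.89 and Spearman's rho = 0.89, r = 0.84 without the 2 libraries farthest from the median and r = 0.67 after centring on treatment and set. In RNA the same pair had r = 0.74, and 0.02 after that centring. The highest pair in RNA was Foxo1 with Fbxo31 at r = 0.87, both at their highest in leucine library A3. That r was 0.68 without the 2 libraries farthest from the median and 0.63 without A3, and after centring on treatment and set it was 0.82 with A3 and 0.18 without it. Foxo1 with Foxo3 had r = 0.75 in RNA and 0.69 in footprints, and 0.75 and 0.78 after centring. With all libraries Atf4 ran against the others in RNA, with r = -0.80 to Foxo1, -0.70 to Trim63, -0.69 to Fbxo31 and -0.68 to Klf15. Without A3 these were -0.36, -0.65, -0.10 and -0.54. After centring on treatment and set and without A3 they were -0.07, -0.33, 0.41 and -0.36. Atf4 was then at r = 0.45 with Fbxo32, -0.10 with Foxo3 and -0.54 with Ddit4.

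Among all other genes, the 3 whose RNA pattern over the 11 libraries was most like Fbxo32 were Btbd3 (r = 0.99), Klhl21 (0.98) and Slc7a6 (0.97), and after centring on treatment and set these were 0.97, 0.88 and 0.87. In footprints they were Zranb1, Vwf and Klhl38 (all r = 0.98). For Trim63 they were Pla2g4e (0.95), Ankrd9 (0.93) and Pygm (0.92), which encodes muscle glycogen phosphorylase, in RNA (0.95, 0.83 and 0.79 after that centring), and Atp6ap1 (0.98), 9530068E07Rik (0.98) and Cacna2d1 (0.96) in footprints. For Ddit4 they were Map3k6 (0.89), Tinagl1 (0.88) and Afg3l1 (0.88) in RNA, and Nfkbia (0.93), Wdr35 (0.90) and Cdh13 (0.88) in footprints. Foxo1 RNA was most like Hnrnpul1, Rfx7 and Klf13 (all 0.98, and 0.94, 0.94 and 0.93 without leucine A3), and Foxo3 RNA like Klf9 (0.96), Kalrn (0.96) and Kdm4a (0.95). Klf15 RNA was nearest to Pias1 (0.93), Fbxo31 RNA to Etnk1 (0.98, and 0.95 without A3) and Atf4 RNA to Zbtb17 (0.97, and 0.92 without A3). Of the 48 genes that come out of this rule over both assays, 11 were again among the 3 most alike after centring on treatment and set. These are the highest values among all genes of the table and are given as descriptions.

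Footprints per RNA differed widely between the members in fasted vehicle muscle. On raw counts scaled per assay, the log2 ratio of footprint to RNA level was -1.62 for Atf4, lower than that of all but 7.85% of genes, beside a median of -0.19 over all genes. It was -0.58 for Fbxo31, -0.53 for Klf15, 0.13 for Foxo1, 0.22 for Ddit4 and Fbxo32, 0.47 for Trim63 and 0.53 for Foxo3. From group medians in place of means it was -0.11 for Foxo1, 0.49 for Ddit4, 0.03 for Fbxo32, 0.45 for Trim63 and 0.29 for Foxo3, and -1.63 for Atf4. Dividing RNA by transcript length and footprints by coding length, Atf4 was again low at -0.90 (the 4.95th percentile, median of all genes 0.78). Fbxo32 was then at 2.93, the 97.1st percentile. Its listed transcript is 6936 bases long with 1065 coding bases, so its per-length value rests on that listed length. The Atf4 mRNA is known for short upstream reading frames that hold back the main one, and counts per gene do not show where on the mRNA footprints lie.

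Per length in vehicle, RNA levels ordered as Trim63 (393 CPM per kb), Fbxo32 (146), Atf4 (74.9), Ddit4 (60.9), Fbxo31 (18.3), Klf15 (9.76), Foxo3 (5.77) and Foxo1 (4.09). Footprints per coding kb put Fbxo32 first (1107 CPM per kb), then Trim63 (966), Ddit4 (174), Atf4 (40.2), Fbxo31 (35.1), Foxo1 (12.7), Klf15 (12.5) and Foxo3 (11.9). In RNA per length, Atf4 and Ddit4 differed by less than the SD between vehicle libraries of Ddit4, as did Foxo3 and Foxo1 by that of Foxo3. The spread of Fbxo32 and Trim63 between vehicle libraries exceeds their difference in footprints, and the last 3, Foxo1, Klf15 and Foxo3, differ by less than theirs. After leucine the ratio of Atf4 was -1.66, at the 7.42nd percentile, and its efficiency change was -0.05 ± 0.13 (95% interval -0.32 to 0.21, edgeR adjusted p = 0.981).

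**Figure D5:**
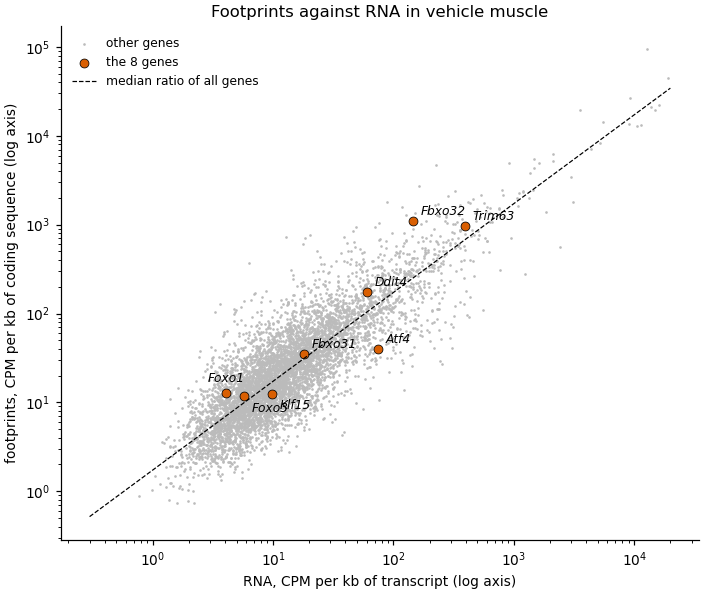
Footprint CPM per kb of coding sequence against RNA CPM per kb of transcript in vehicle muscle, both on log axes, for the genes with both lengths (98.1% of the table), with the median ratio as a dashed line. Atf4 lies below the line and Fbxo32 above it, and the other 6 genes lie closer to it.

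The other genes of the pathway were described from lists chosen with earlier results of these data known. Of 45 other FoxO-linked, atrophy and fasting genes 38 were measured, and 0 passed the threshold in any comparison. The background was 0.0% of all genes in RNA and in efficiency and 0.76% in footprints. Their median log2 footprint change was -0.0047, with 18 positive and 20 negative, beside -0.01 over all genes. The smallest p in footprints belonged to Foxo4, the third FoxO factor of muscle, with 17.95 CPM in vehicle and 14.7 CPM in leucine and a change of -0.29 ± 0.09 (edgeR adjusted p = 0.168). Fbxo21, another F-box gene of fasting muscle, had 0.41 ± 0.15 (adjusted p = 0.286) and Traf6, a ubiquitin ligase, -0.25 ± 0.10 (adjusted p = 0.35). In RNA the smallest p were those of Asb2, a subunit of another cullin ligase (-0.40 ± 0.16), the mitophagy receptor gene Bnip3 (0.14 ± 0.07) and the deubiquitinase gene Usp14 (0.13 ± 0.07), each with an edgeR adjusted p = 0.999.

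The glucocorticoid receptor gene Nr3c1 and 14 glucocorticoid-induced genes were measured of 16 listed, and 0 passed in any comparison. In footprints 11 changes were positive and 4 negative, with a median of 0.14, and in RNA 11 and 4 with a median of 0.13. Over all genes 46.2% of changes were positive in footprints and 49.4% in RNA, with medians of -0.01 and -0.0017. The genes named next are those with the smallest p in the list. Lpin1, a phosphatidate phosphatase and coactivator, had a footprint change of 0.28 ± 0.09 and Fkbp5, a chaperone of the receptor, one of 0.32 ± 0.14 (edgeR adjusted p = 0.18 and 0.374). Glul, glutamine synthetase, had an RNA change of 0.59 ± 0.20 (adjusted p = 0.999). Nr3c1 itself had -0.10 ± 0.07 in footprints. The kinases and phosphatases upstream of FoxO gave 0 calls among 19 measured of 22. There Stk11, which encodes the kinase LKB1, had a footprint change of -0.32 ± 0.11, Mtor 0.20 ± 0.08 and Tsc2, a subunit of the complex through which REDD1 acts, 0.21 ± 0.09 (edgeR adjusted p = 0.267, 0.302 and 0.361).

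Of 35 genes of the integrated stress response and its ATF4 targets, 17 were measured and 0 passed. In footprints 12 were positive and 5 negative with a median of 0.09, and in RNA 6 and 11 with a median of -0.01. Gpt2, an alanine aminotransferase, had 0.25 ± 0.08 in footprints, the amino acid carrier Slc38a2 0.22 ± 0.12 and Slc3a2, a subunit of a leucine exchanger, 0.12 ± 0.07 (edgeR adjusted p = 0.236, 0.48 and 0.538). Of 18 p53 and cell-cycle arrest genes 10 were measured and 0 passed. Among them Cdkn1c, the p57 gene, had 0.33 ± 0.12 in footprints (edgeR adjusted p = 0.28) and Mdm2, the ligase of p53, -0.14 ± 0.09.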

How the data were processed

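Quadriceps RNA and ribosome footprints were sequenced on an Illumina HiSeq instrument after ribosomal RNA removal, per the labels' protocols. Bowtie and edgeR were used with build mm9, per the submitters' processing notes, whose versions and handling of multi-mapping reads the sources used here do not state. The authors deposited whole-number counts per gene for 22 libraries, which were the values fitted, with 0 sample columns left out. The authors also deposited edgeR tables whose log2 changes, p-values and FDR, named so per the file headers, were used only where credited.

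Groups follow the labelled treatment and assay. The tests used R 4.3.3 and edgeR 4.0.16 (TMM, filterByExpr, robust quasi-likelihood, Benjamini-Hochberg adjustment over 6054 genes, threshold 0.05), with DESeq2 1.42.0 and limma 3.58.1 as alternatives. Efficiency is the interaction of treatment and assay over all 22 libraries, unpaired. Changes are leucine minus vehicle and relative to the other genes. CPM use TMM-scaled library sizes, and log2 CPM add a prior count of 1. The sets were read from column names after the data had been seen, and their comparison (treatment and set in 1 model) was added then. Lengths are transcript lengths from the authors' tables and coding lengths from GENCODE M21 by RefSeq identifier. Promoters are RefSeq's. Spread, likeness and counts were computed with Python 3.11.15 and pandas 2.3.3. The fits were tested on simulated counts that gave every gene the same low spread and no set difference. That test does not show how often a change would be found in members as variable as Foxo1 RNA or Fbxo32 footprints.

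Named genes are all members and, per list, the 3 smallest p in footprints and in RNA, of which some are given, and for likeness the 3 highest Pearson r per member and assay. Marker lists were also counted: of those listed, 14 of 15 muscle fibre, 7 of 9 endothelial, 9 of 9 fibroblast and matrix, 5 of 7 smooth muscle, 3 of 11 macrophage, 1 of 7 adipocyte and 0 of 6 erythroid markers were measured. For every list with a measured gene, the summed levels overlapped between vehicle and leucine in both assays. The adipocyte sum is Fabp4 alone, and the erythroid list could not be compared. The members and lists were chosen with earlier results of these data known.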

Additional observations from a re-analysis of the deposited data

Results flagged for a closer look

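Of 32 groups tested (8 genes, 4 groups), 4 held a library that stood far from the rest of its group. The rule flags about 1 in 20 groups by chance only for independent, normally distributed values, and the 8 genes share their libraries. The share of all genes that it flags was not computed, so the 4 flags are not read as an excess. All 4 were a leucine library A3 on the high side. In RNA, Foxo1 was at 90.5 CPM in leucine A3, beside 14.3 to 26.8 CPM in the other 5 leucine libraries. Fbxo31 was at 128 CPM there, beside 60.8 to 69.3 CPM. In footprints, Trim63 was at 1906 CPM in leucine A3, beside 575 to 1023 CPM, and Klf15 at 20.2 CPM, beside 8.92 to 12.7 CPM. The RNA library of that name was extreme in 65.9% of all genes of its group, and the footprint library in 39.1%, where an equal share would be 33.3%.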

How the results depend on the processing

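No member was called under any alternative of the leucine comparisons that gave it an adjusted p. DESeq2 gave none to Foxo1, Foxo3 and Klf15 in efficiency, nor, with the set as covariate, to Foxo3 and Klf15 in RNA and efficiency. Restricting to genes of mean CPM at least 20 left out Foxo3 in RNA, Klf15 in footprints and both in efficiency. No paired analysis was possible because the columns carry no replicate number. Counts of all genes called moved more. In footprints they were 0 with upper-quartile scaling, total counts or set A alone, 1 with set B alone, 253 with DESeq2, 465 with DESeq2 and set, and 0 to 98 with each library left out (98 without leucine A3). In RNA DESeq2 with set called 12, and in efficiency DESeq2 called 57, or 101 with set. Total counts moved the median of all genes to -0.15 in footprints and -0.17 in efficiency.

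Signs of small changes turned. In RNA, Foxo3 was 0.030 with set as covariate, 0.38 in set B and 0.038 with DESeq2 and set. Klf15 was 0.0058, 0.20 and 0.015 there, and Fbxo31 0.043 in set B. In footprints of set A, Trim63 was 0.064, Foxo1 -0.026 and Foxo3 -0.029. With total counts Foxo1 was -0.040, Foxo3 -0.14, Fbxo31 -0.036 and Atf4 -0.11. Foxo3 footprints were -0.014 with upper-quartile scaling, -0.00227 with limma-voom and -0.000249 over genes of mean CPM at least 20. In efficiency, total counts and set B gave -0.067 and -0.10 for Trim63, -0.0757 and -0.25 for Foxo3, and -0.013 and -0.081 for Ddit4.

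With each library left out, RNA changes ran from -0.46 to 0.077 for Fbxo32, -0.11 to 0.68 for Foxo1, -0.28 to 0.029 for Foxo3, -0.12 to 0.044 for Klf15 and -0.30 to 0.023 for Fbxo31. Footprint changes ran from -0.38 to 0.046 for Trim63, -0.092 to 0.074 for Foxo3 and -0.014 to 0.069 for Atf4. Efficiency changes ran from -0.52 to 0.066 for Fbxo32, -0.19 to 0.25 for Trim63, -0.60 to 0.20 for Foxo1, -0.014 to 0.27 for Foxo3, -0.14 to 0.41 for Ddit4 and -0.13 to 0.0010 for Atf4. The cause was not tested.

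In the set comparison, 1 to 4 members were called in RNA and 2 to 4 in footprints with each library left out, and the genes called in all ran from 417 to 1743 in RNA and from 1085 to 1434 in footprints. DESeq2 called 1978 genes in RNA, and total counts 2723 in RNA and 2232 in footprints. The Foxo1 footprint difference was 0.028 with upper-quartile scaling, 0.16 with total counts and -0.10 to 0.090 with each library left out. Total counts gave 0.055 for Fbxo31 and 0.054 for Atf4. The Fbxo32 and Trim63 RNA correlation was 0.019 after centring, that of Foxo1 and Fbxo31 footprints was -0.080 without leucine A3 (0.074 with it), and per length the efficiency percentile was 97.1 for Fbxo32 and 56.5 for Fbxo31. Between 3 and 5 members were in the most variable 10% of genes in each assay under every alternative taken singly. With centring on treatment and set and leucine A3 left out together, 2 were there in RNA and 4 in footprints.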
